A study of Mus musculus with 20 samples.

Results

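The genes described here are the DNA methylation enzymes and their helpers in Aire knockout and wild-type thymic epithelium, with the cofactor Dnmt3l at the centre. They were chosen by name as the methyltransferases Dnmt1, Dnmt3a and Dnmt3b, the cofactor Dnmt3l, the adaptor Uhrf1 and the demethylating dioxygenases Tet1, Tet2 and Tet3. Every array probe set annotated to exactly 1 of these 8 symbols was taken, which gave 20 of the 45037 probe sets tested, 1 for Dnmt3l and 19 for the other 7 genes, out of 18193 genes with a probe set of a single symbol. Dnmt3l was picked because its signal was known to be higher in the knockout mice of this series, so its knockout values are given as a description with no test. The other 7 genes were picked by function and were tested.

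Gene expression was measured with Affymetrix arrays, 1 thymus per array, in male mice aged 3 to 4.5 weeks. Medullary thymic epithelial cells were sorted as CD45 negative, G8.8 (Epcam) positive, Ly51 intermediate and high for MHC class II, the cells that normally make the transcriptional regulator Aire. The groups were Aire knockout (KO) against Aire wild-type (WT) mice, 3 against 3 on the B6 background, 4 against 4 on BALB and 3 against 3 on NOD. The labels give neither how the Aire allele was made nor the history of the chromosome around it, and KO below means labelled KO. In sorted bulk samples, fewer cells of a type and less RNA per cell cannot be told apart.

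DNA methylation is copied onto new strands after replication by Dnmt1, which Uhrf1 brings to half-methylated sites, and it is set on unmethylated DNA by Dnmt3a and Dnmt3b. Dnmt3l has no catalytic activity of its own. It binds Dnmt3a and Dnmt3b, stimulates them, reads unmethylated histone tails and is known above all for setting imprints and silencing transposons in germ cells. The Tet enzymes oxidise methylcytosine as the first step of its removal.

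Dnmt3l and Aire are neighbours on mouse chromosome 10 and are read from opposite strands. In RefSeq (GRCm38.p6) the first of 3 annotated Dnmt3l starts lay inside the Aire gene, 1323 bases from the Aire start, and the other Dnmt3l starts lay 6232 and 11725 bases beyond it. The 250 bases before each start are shown for Dnmt3l, for the 2 genes among the other 7 that passed the test below (Tet2 and Dnmt3b) and for Aire, because the starts differ in the CG dinucleotides on which these enzymes act. Each runs 5′ to 3′ on the strand of its gene, and capitals mark every CG.
Dnmt3l start 1 (chr10:78042037-78042286, plus strand): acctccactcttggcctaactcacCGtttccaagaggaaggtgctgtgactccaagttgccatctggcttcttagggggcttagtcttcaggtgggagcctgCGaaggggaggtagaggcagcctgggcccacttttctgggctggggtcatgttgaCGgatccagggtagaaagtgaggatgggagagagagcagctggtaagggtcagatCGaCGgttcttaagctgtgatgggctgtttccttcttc
Dnmt3l start 2 (chr10:78049592-78049841, plus strand): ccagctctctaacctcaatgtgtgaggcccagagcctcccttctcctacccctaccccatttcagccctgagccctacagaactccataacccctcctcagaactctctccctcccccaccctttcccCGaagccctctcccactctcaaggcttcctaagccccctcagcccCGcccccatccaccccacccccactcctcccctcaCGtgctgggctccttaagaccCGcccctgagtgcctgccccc
Dnmt3l start 3 (chr10:78055085-78055334, plus strand): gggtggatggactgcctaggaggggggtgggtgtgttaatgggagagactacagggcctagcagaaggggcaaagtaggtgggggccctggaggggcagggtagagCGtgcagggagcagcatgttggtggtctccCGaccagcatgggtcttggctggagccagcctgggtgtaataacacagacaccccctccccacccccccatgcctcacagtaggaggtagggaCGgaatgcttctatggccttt
Tet2 (chr3:133544391-133544640, minus strand): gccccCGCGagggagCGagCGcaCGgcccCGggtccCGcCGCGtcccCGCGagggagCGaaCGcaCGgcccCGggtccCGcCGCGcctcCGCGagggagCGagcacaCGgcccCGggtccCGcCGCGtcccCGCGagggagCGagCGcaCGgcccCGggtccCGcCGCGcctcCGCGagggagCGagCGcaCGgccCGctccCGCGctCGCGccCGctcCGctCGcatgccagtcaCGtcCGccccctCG
Dnmt3b (chr2:153649199-153649448, plus strand): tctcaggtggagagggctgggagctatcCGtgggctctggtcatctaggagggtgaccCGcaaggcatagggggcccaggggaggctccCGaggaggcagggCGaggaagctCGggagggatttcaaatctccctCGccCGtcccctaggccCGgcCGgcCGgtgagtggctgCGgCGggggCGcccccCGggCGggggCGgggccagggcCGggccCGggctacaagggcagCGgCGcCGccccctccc
Aire (chr10:78043611-78043860, minus strand): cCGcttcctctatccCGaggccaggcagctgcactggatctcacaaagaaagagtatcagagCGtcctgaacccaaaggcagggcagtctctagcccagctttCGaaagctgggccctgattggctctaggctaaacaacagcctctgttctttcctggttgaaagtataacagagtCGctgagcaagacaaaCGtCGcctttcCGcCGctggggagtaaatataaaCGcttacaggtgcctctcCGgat
The 3 Dnmt3l windows held 5, 4 and 3 CG, against 51 in the Tet2 window, 21 in the Dnmt3b window and 11 in the Aire window. The median over all 32851 windows of this kind was 6, and 49.6%, 44.4% and 37.8% of windows held as many as the 3 Dnmt3l windows or fewer. The Dnmt3l starts thus lay somewhat below the median in CG, and those of Tet2 and Dnmt3b well above it. The Dnmt3a windows held 38, 40 and 15 CG, those of Dnmt1 2, 7 and 26, those of Uhrf1 10 and 30, Tet1 15 and Tet3 17. These counts describe sequence only, and methylation was not measured in this series.

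The arrays had nearly equal medians, between 86.3 and 90.9 intensity units. The Aire probe set, in the gene that was targeted, read 11.54, 11.48 and 11.56 in B6 KO mice against 10.81, 10.73 and 10.65 in B6 WT mice, on the log2 intensity scale used throughout. It read 11.07, 11.20, 11.01 and 10.53 in BALB KO against 10.48, 10.53, 10.71 and 9.31 in BALB WT mice, and 11.89, 12.04 and 11.80 in NOD KO against 11.45, 11.16 and 10.96 in NOD WT mice. The signal was thus higher, not lower, in KO mice, and no source used here places the probes relative to the deleted part, so it does not check the genotype. Among the 8 markers of mature medullary epithelium, Epcam averaged 11.61, 11.95 and 11.43 in B6, BALB and NOD KO mice against 11.73, 12.25 and 11.66 in WT mice, and the transcription factor Fezf2 lay between 11.49 and 11.63 in the means of all 6 groups. Others of these markers did differ by genotype, Cd80 and H2-Ab1 being higher and Krt5 and Krt14 lower in KO mice, as given below. The 3 arrays with the lowest log2 ratio of 3′ over 5′ Gapdh probes, a sign of RNA quality, were all of B6 mice. The ratio was 1.68 and 1.84 in KO mice 2 and 3 and 1.90 in WT mouse 2, against 2.15 to 3.76 on the other 17 arrays. A lower ratio means relatively more 5′ signal, and the highest ratio (3.76) was that of B6 WT mouse 1. The member and gene list calls below that were lost without the 3 arrays of low ratio are named with their values or counts. This leaves out the lists of cell type markers, whose calls are given with all arrays only.

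Dnmt3l, the cofactor, is read by the single probe set 1425035_s_at. In Affymetrix naming the s and x suffixes mark probes that can match more than 1 transcript, and whether the signal comes from Dnmt3l alone was not tested. It read 10.02, 10.87 and 10.73 in B6 KO mice against 8.47, 8.88 and 8.72 in B6 WT mice. On BALB it read 9.42, 9.76, 9.27 and 9.30 in KO mice against 8.01, 7.88, 7.74 and 6.96 in WT mice. On NOD it read 10.44, 10.55 and 10.14 in KO mice against 9.41, 8.34 and 8.14 in WT mice. All 10 KO mice lay above every WT mouse of their own strain, and the NOD WT mouse at 9.41 was the one WT mouse that reached the range of the BALB KO group. The difference was 1.85 ± 0.31 (SE) in B6, 1.79 ± 0.26 in BALB and 1.74 ± 0.31 in NOD, and averaged over the strains it was 1.79 ± 0.17, a 3.46-fold higher signal in KO mice. These values chose the gene and carry no test. Without the 3 B6 arrays of low Gapdh ratio the average was 1.65, and the B6 difference, then KO mouse 1 against WT mice 1 and 3, was 1.42.

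**Figure D1:**
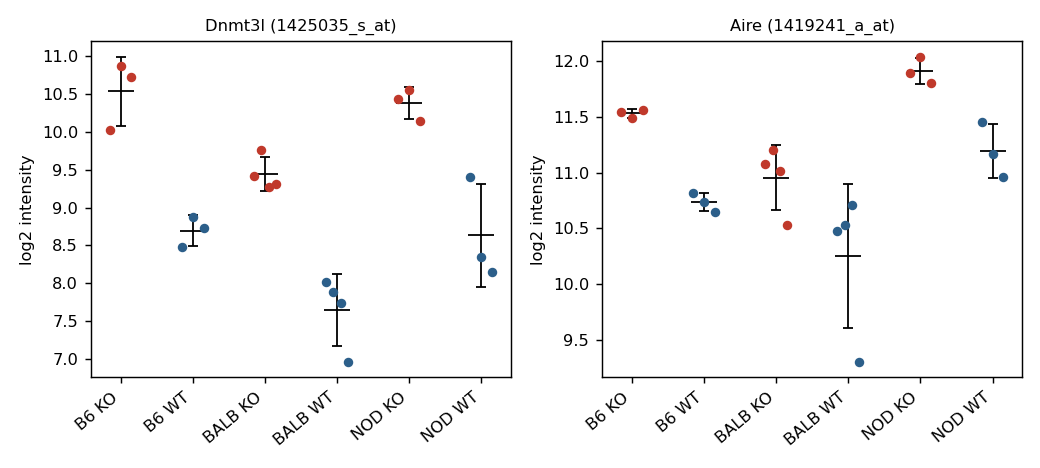
Log2 intensity of the Dnmt3l and Aire probe sets in each mouse (points, KO red, WT blue), with the mean and SD of each group as lines, for B6, BALB and NOD. Dnmt3l KO mice lie above the WT mice of each strain (9.27 or more in BALB KO against 8.01 or less in BALB WT), and the lowest mouse of both panels is BALB WT mouse 4.

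The size of the Dnmt3l difference was close to the same on all backgrounds. The KO effect in BALB minus that in B6 was -0.06 ± 0.40 (SE), and in NOD minus that in B6 it was -0.10 ± 0.43, so differences between strains of the order of these errors cannot be seen with 3 or 4 mice a group. The F test of the strain difference, which the choice of the gene did not use, gave a limma Benjamini-Hochberg adjusted p of 1.0. Codes in the sample descriptions form runs of unstated meaning, and within the 5 sets of KO and WT mice of 1 strain and 1 run the Dnmt3l difference was 1.03 to 2.10. The lowest of these, in NOD, was 1 KO against 1 WT mouse.

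Dnmt3l levels also differed between backgrounds in mice that have Aire. The order of the group means was B6 KO (10.54 ± 0.46, SD, n = 3), NOD KO (10.37 ± 0.21, n = 3), BALB KO (9.44 ± 0.22, n = 4), B6 WT (8.69 ± 0.20, n = 3), NOD WT (8.63 ± 0.68, n = 3) and BALB WT (7.65 ± 0.47, n = 4). The mice of B6 KO and NOD KO overlapped, as did those of B6 WT and NOD WT. BALB was the lowest strain in both genotypes. Among WT mice the F test over strains passed (limma, Benjamini-Hochberg adjusted p = 0.0264), and Dnmt3l was the 1 member probe set of 20 that did, against 11.3% of all probe sets. At an unadjusted p under 0.05 there were 3, and the other two did not pass after adjustment. BALB WT minus B6 WT was -1.04 ± 0.29 (SE; limma adjusted p = 0.0370) and NOD WT minus BALB WT was 0.98 (adjusted p = 0.0491), while NOD WT minus B6 WT was -0.06 ± 0.31 (adjusted p = 0.945). The F test rests on few mice. It missed the threshold without BALB WT mouse 4 (limma adjusted p = 0.0917), B6 WT mouse 2 (0.0546) or B6 WT mouse 3 (0.0522), and without the 3 B6 arrays (0.0503). Of 29 alternatives, the BALB minus B6 difference lost its call in 7. These were an added constant (limma adjusted p = 0.0542), code run as a block (0.781), leaving out the 3 B6 arrays (0.128), and leaving out B6 WT mouse 2 (0.14) or 3 (0.106) or BALB WT mouse 3 (0.0571) or 4 (0.0959). The NOD minus BALB difference lost its call in 20 of 29, and without NOD WT mouse 1 it was 0.59 (limma adjusted p = 0.268).

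Among the other 7 genes, in the model without pairs, Tet2 rose, Dnmt3b fell and the remaining 5 did not pass. Of the 19 other probe sets, 4 passed for the KO minus WT difference averaged over strains, against 20.6% of all probe sets. The 2 that rose were both probe sets of Tet2 (10.5% of all probe sets rose), and the 2 that fell were both probe sets of Dnmt3b (10.1% of all fell). The other 15 probe sets, of Dnmt1, Dnmt3a, Uhrf1, Tet1 and Tet3, did not pass. The share is close to that of the array as a whole, and the median difference of the 19 was -0.02 against 0.06 over all probe sets. With same-numbered mice as a replicate block, Uhrf1 1415810_at (limma adjusted p = 0.000292) and Tet1 1455425_at (0.0305) passed as well. That block called 16664 of all 45037 probe sets.

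**Figure D2:**
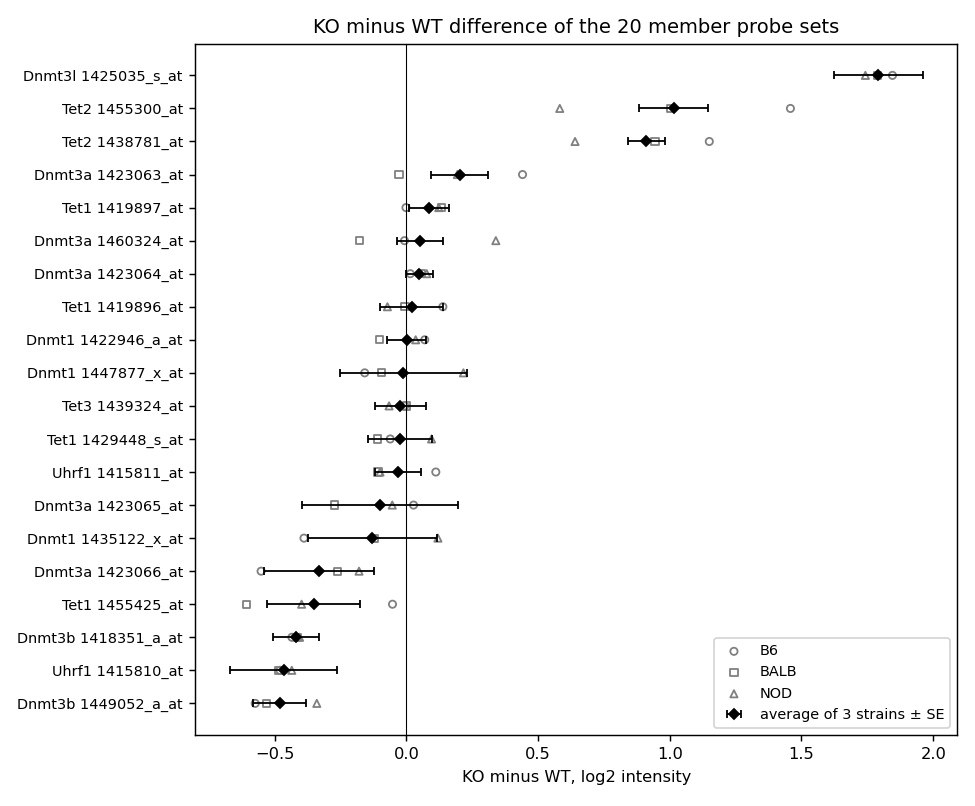
KO minus WT difference in log2 intensity for each of the 20 probe sets, ordered by the average over strains. Black diamonds with bars are the average ± SE, and open circles, squares and triangles are B6, BALB and NOD. Dnmt3l stands at 1.79, the Tet2 probe sets at 1.01 and 0.91, and the Dnmt3b probe sets at -0.42 and -0.48.

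Tet2 is the dioxygenase best known from blood cells, where its loss promotes clonal growth. Its brighter probe set (1438781_at) read 11.81, 11.50 and 11.67 in B6 KO mice against 10.61, 10.37 and 10.55 in B6 WT mice. In BALB it read 11.48, 11.73, 11.63 and 11.47 in KO against 10.41, 10.89, 10.66 and 10.59 in WT mice, and in NOD 10.94, 11.20 and 10.91 in KO against 10.47, 10.42 and 10.23 in WT mice. All 10 KO mice lay above every WT mouse of any strain. The averaged difference was 0.91 ± 0.07 (SE), a 1.88-fold rise (limma, Benjamini-Hochberg adjusted p = 3.6e-08). Tet2 rose in each strain taken alone, by 1.15 ± 0.13 in B6 (limma adjusted p = 1.02e-05), 0.94 ± 0.11 in BALB (2.17e-05) and 0.64 ± 0.13 in NOD (0.00568).

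The second Tet2 probe set (1455300_at) gave the same direction at a lower signal. It read 9.0, 9.36 and 9.43 in B6 KO mice against 7.65, 8.34 and 7.42 in B6 WT mice. It read 9.02, 9.06, 8.69 and 8.30 in BALB KO against 7.95, 8.03, 7.31 and 7.77 in BALB WT mice, and 8.07, 7.97 and 8.02 in NOD KO against 7.73, 7.27 and 7.31 in NOD WT mice. The genotypes did not overlap in any strain. The averaged rise was 1.01 ± 0.13 (limma adjusted p = 1.84e-05). B6 (1.46 ± 0.24, limma adjusted p = 0.000508) and BALB (1.0 ± 0.21, 0.00496) passed alone, whereas NOD (0.58 ± 0.24, 0.262) did not, except with same-numbered mice as a replicate block (0.0471) or with array weights (0.00883).

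**Figure D3:**
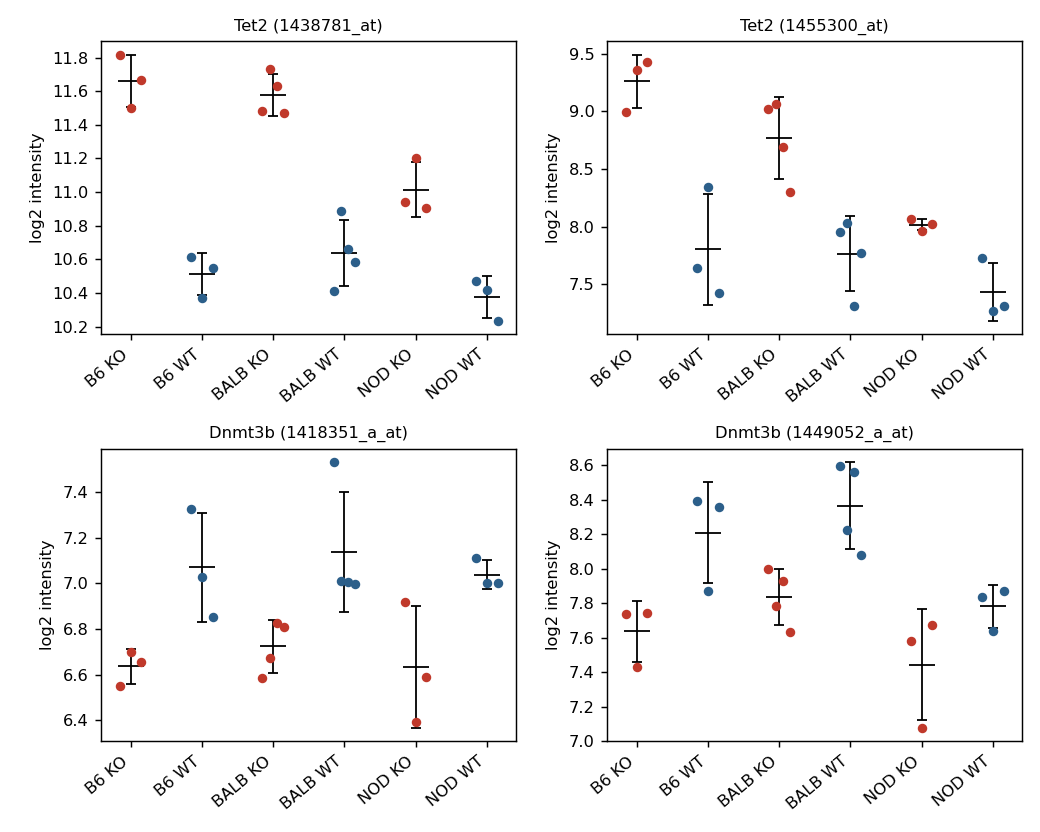
Log2 intensity of both probe sets of Tet2 (top) and of Dnmt3b (bottom) in each mouse, KO red and WT blue, with group mean and SD as lines. Tet2 KO mice lie above the WT mice of their strain in both top panels. In the bottom left panel (1418351_a_at) every KO mouse lies below the WT mice of its strain, and in the bottom right (1449052_a_at) NOD KO mouse 3 at 7.67 exceeds NOD WT mouse 2 at 7.64.

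Both Tet2 probe sets differed most in B6 and least in NOD, but the difference between strains did not pass. For 1438781_at the effect in NOD minus that in B6 was -0.51 ± 0.18 (SE; limma adjusted p = 0.704), and for 1455300_at it was -0.88 ± 0.34 (adjusted p = 0.848). By the limma F test 0 of the 20 member probe sets passed for a strain difference of the KO effect, against 0.435% of all probe sets. One, Tet2 1438781_at, had an unadjusted p under 0.05, and 1 passed with array weights.

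Dnmt3b, a methyltransferase that sets new methylation, fell in KO mice on both of its probe sets. Probe set 1418351_a_at read 6.55, 6.70 and 6.66 in B6 KO mice against 7.33, 7.03 and 6.85 in B6 WT mice. It read 6.59, 6.67, 6.83 and 6.81 in BALB KO against 7.53, 7.01, 7.01 and 7.0 in BALB WT mice, and 6.92, 6.39 and 6.59 in NOD KO against 7.11, 7.0 and 7.0 in NOD WT mice. All 10 KO mice lay below every WT mouse of their strain. Averaged over strains it fell by 0.42 ± 0.09 on the log2 scale, or 1.34-fold, with a limma adjusted p of 0.00186.

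Probe set 1449052_a_at of Dnmt3b read 7.74, 7.43 and 7.74 in B6 KO mice against 8.40, 7.87 and 8.36 in B6 WT mice. It read 8.0, 7.78, 7.93 and 7.63 in BALB KO against 8.60, 8.23, 8.56 and 8.08 in BALB WT mice, and 7.58, 7.08 and 7.67 in NOD KO against 7.84, 7.64 and 7.87 in NOD WT mice. Of the KO mice 9 of 10 lay below every WT mouse of their strain. The averaged difference was -0.48 ± 0.10 (limma adjusted p = 0.00189). Among single strains it passed in BALB (-0.53 ± 0.16, limma adjusted p = 0.0499), a call lost in 21 of 30 alternatives. With same-numbered mice as a replicate block the limma adjusted p was 0.000681 in BALB, 0.0395 in NOD and 0.000837 in B6, where same-numbered mice were less consistently alike. The same block brought 1418351_a_at below the threshold in BALB (0.045).

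Counting the mice gives the same picture without a model. Dnmt3l and both Tet2 probe sets were higher with no overlap of KO and WT mice in any strain, as were 1.37% of all probe sets, and Dnmt3l was chosen for that direction. Dnmt3b 1418351_a_at was lower with no overlap in any strain, as were 3.17% of all probe sets. In the single strains 2 of the 19 other probe sets passed in B6 (8.62% of all), 3 in BALB (6.84%) and 1 in NOD (4.23%), each of them a probe set of Tet2 or Dnmt3b.

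Dnmt3a, the other enzyme that sets new methylation, showed no common direction over its 5 probe sets, and none passed with all mice. Their averaged differences ran from -0.33 ± 0.21 (1423066_at, limma adjusted p = 0.274) to 0.20 ± 0.11 (1423063_at, adjusted p = 0.199). Probe set 1423064_at, with small errors, differed by 0.05 ± 0.05 (adjusted p = 0.527), and 1460324_at by 0.05 ± 0.09 (adjusted p = 0.694). Probe set 1423066_at depended on single B6 arrays. It read 7.22 and 6.95 in B6 KO mice 2 and 3 and 6.97 in B6 WT mouse 2, against 8.37 to 9.18 elsewhere, and without these arrays its difference was -0.22 ± 0.12 (limma adjusted p = 0.241). Without B6 WT mouse 2 alone it was -0.52 and passed (limma adjusted p = 0.0287), as did 1423063_at (0.29, 0.0357). Both also passed with array weights.

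Dnmt1, the maintenance enzyme, did not pass on any of its 3 probe sets. The steadiest, 1422946_a_at, lay between 8.21 and 8.81 in all mice and differed by 0.00 ± 0.08 (SE; limma adjusted p = 0.995). Probe set 1435122_x_at read 6.84 and 7.41 in B6 KO mice 2 and 3 and 6.67 in B6 WT mouse 2, against 8.24 to 9.0 on the other arrays, and 1447877_x_at read 5.71, 6.11 and 5.21 on the same arrays. The low readings thus came from mice of both genotypes, on the arrays of low Gapdh ratio. Without them the averaged differences were -0.01 ± 0.11 for 1435122_x_at (limma adjusted p = 0.963) and 0.10 ± 0.09 for 1447877_x_at (0.485).

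**Figure D4:**
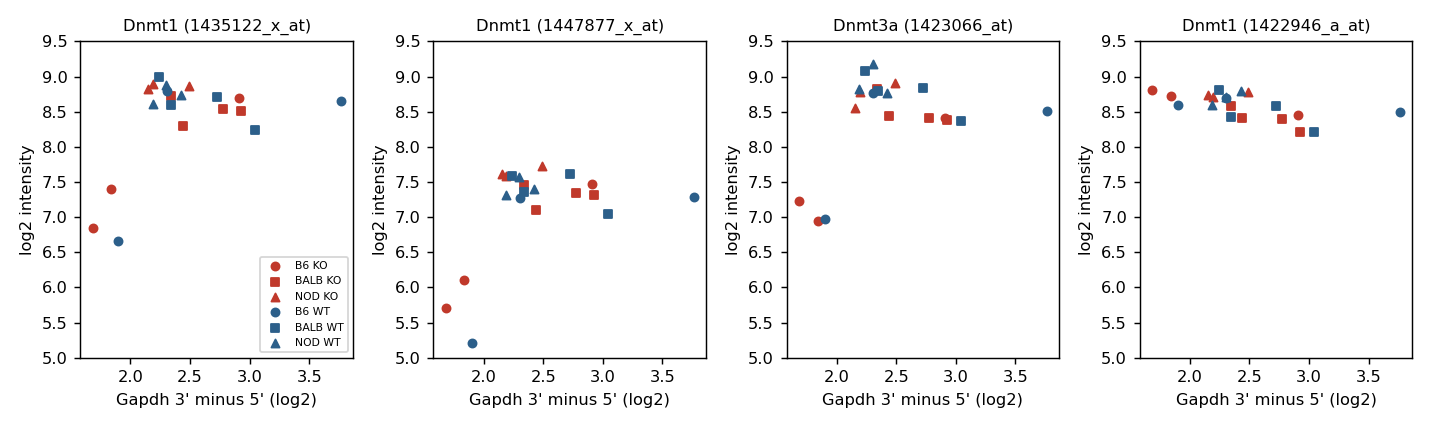
Log2 intensity of 4 probe sets in each mouse (vertical axis) against the log2 Gapdh 3′ minus 5′ signal of the same array (horizontal axis), with circles for B6, squares for BALB and triangles for NOD, KO red and WT blue. The 3 B6 arrays at 1.90 or less on the horizontal axis are low for Dnmt1 1435122_x_at, Dnmt1 1447877_x_at and Dnmt3a 1423066_at, but not for Dnmt1 1422946_a_at in the last panel.

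Uhrf1, the adaptor that guides Dnmt1, read 8.0, 7.56 and 7.78 in B6 KO mice against 8.51, 8.16 and 8.10 in B6 WT mice on its brighter probe set (1415810_at). It read 7.99, 8.47, 7.95 and 7.06 in BALB KO against 8.52, 9.03, 8.62 and 7.23 in BALB WT mice, and 8.60, 8.10 and 8.51 in NOD KO against 9.21, 8.82 and 8.49 in NOD WT mice. Both genotypes ranged widely in BALB, where mouse 4 of each was the lowest. The averaged difference was -0.47 ± 0.20 (limma, Benjamini-Hochberg adjusted p = 0.115) and did not pass. With same-numbered mice as a replicate block the limma adjusted p was 0.000292, the KO mouse being lower in 9 of 10 same-numbered pairs, and it passed in BALB (0.0123) and B6 (0.0231) taken alone. The block and the pairs include B6, where same-numbered mice were less consistently alike. The averaged limma adjusted p was 0.0152 with array weights and 0.0121 without BALB WT mouse 4. The dimmer probe set 1415811_at, below the median level of the array, differed by -0.03 ± 0.09 (adjusted p = 0.819).

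The other Tet genes had no KO call in the model without pairs. Tet3 had 1 probe set, which lay between 5.97 and 6.46 in KO mice and between 6.03 and 6.62 in WT mice and differed by -0.02 ± 0.10 (limma adjusted p = 0.882). Of the 4 probe sets of Tet1, known from embryonic stem and germ cells, 1455425_at differed by -0.35 ± 0.18 (limma adjusted p = 0.165, 0.0305 with the replicate block and 0.042 with the Gapdh ratio as a covariate; in BALB alone 0.0359 with the block) and the others by -0.03 to 0.09. Tet1 1419896_at was higher in NOD WT than in B6 WT mice by 0.74 (limma adjusted p = 0.0468), the 1 member probe set of 20 to pass in that contrast, against 7.04% of all. Dnmt3l was the 1 that passed between BALB WT and B6 WT (6.10% of all), and it and Dnmt3b 1449052_a_at, lower in NOD WT than in BALB WT mice (-0.58, adjusted p = 0.0490), were the 2 that passed between NOD WT and BALB WT (6.14% of all). Neither the Tet1 nor the Dnmt3b call held in most alternatives. That of Tet1 was lost in 18 of 28 alternatives, among them code run as a block (limma adjusted p = 0.569), leaving out the 3 B6 arrays (0.181) and leaving out B6 WT mouse 2 (0.216). That of Dnmt3b was lost in 20 of 29, among them code run as a block (0.348), quantile normalization (0.1) and leaving out NOD WT mouse 2 (0.197). Of the members 4 probe sets, all of Uhrf1, Tet1 or Tet3, had means below the array's median of 6.50, where small differences are hardest to see.

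Partners of the methylation system were read from a list of 35 genes, of which 31 were measured, each by its brightest probe set. In KO mice 3 rose and 10 fell, against 10.5% and 10.1% of all probe sets, with a median difference of -0.09. The shares here and for the lists below are over all probe sets, not 1 brightest probe set a gene, so the comparison is rough. The largest fall was that of Idh1 (-0.71 ± 0.09, limma adjusted p = 1.55e-05), which makes the oxoglutarate that Tet enzymes use. It was followed by Dppa3 (-0.59 ± 0.12, adjusted p = 0.00138), which protects methylation marks in the early embryo and whose difference lay mostly in B6 (-1.33), and by the DNA ligase Lig1 (-0.55 ± 0.08, 7.46e-05). Those that rose were Gadd45a (0.59 ± 0.08, limma adjusted p = 3.78e-05), a stress gene linked to demethylation, and the methyl-CpG readers Zbtb33 (0.42 ± 0.11, 0.00905) and Zbtb4 (0.41 ± 0.13, 0.0309). Ehmt2 did not pass on its brightest probe set (-0.09), while its other (0.21) rose and passed. Without the 3 B6 arrays 2 rose and 6 fell, Zbtb4 (limma adjusted p = 0.0731) being among those lost, while over all probe sets the calls went down to 6557, against 9277 with all arrays.

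Genes of dividing cells were counted beside Uhrf1 and Dnmt1, because maintenance methylation is tied to replication. Neither Uhrf1 nor Dnmt1 passed for the averaged difference in the main model. Of 24 cell cycle genes 23 were measured, each by its brightest probe set, and in KO mice 0 rose and 10 fell. Over all probe sets, whatever their level, 10.5% rose and 10.1% fell. The median difference of the list was -0.43 against 0.06 over all probe sets. With the replicate block 1 rose (Tyms, thymidylate synthase) and 17 fell. Tyms was read at low signal (mean 4.69), and its other probe sets differed by 0.04 to 0.08. Cdc20, an activator of the anaphase-promoting complex, fell by 0.81 ± 0.23 (limma adjusted p = 0.0173). The replication helicase subunit Mcm5 fell by 0.73 ± 0.18 (0.00700), the proliferation marker Mki67 by 0.68 ± 0.19 (0.0141) and the ribonucleotide reductase subunit Rrm2 by 0.68 ± 0.22 (0.0366). The other probe sets of Mcm5 (-0.29 and 0.23) and Rrm2 (-0.42 and -0.48) did not pass. Of the others of Cdc20, that at -0.64 passed and that at -0.29 did not. Top2a fell on its brightest probe set (-0.61) and rose on another (0.23, limma adjusted p = 0.0279). No other probe set of the 23 genes passed, the brightest ones aside. Without the 3 B6 arrays 4 of the 23 fell, and Cdc20 (limma adjusted p = 0.0669), Mki67 (0.0531) and Rrm2 (0.137) were among those lost. The mean level of the list lay between 7.38 and 8.36 in KO mice and between 7.51 and 8.71 in WT mice, and its part in the Dnmt3b and Uhrf1 differences was not tested.

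Germline genes that DNA methylation is known to silence, and imprinted genes, were counted as well. Of 16 germline genes 0 rose and 6 fell in KO mice, against 10.5% and 10.1% of all probe sets, with a median difference of -0.10. Without the 3 B6 arrays 4 fell, Dazl (limma adjusted p = 0.0977) and Taf7l (0.276) being lost, and with the replicate block 4 rose and 7 fell. The RNA helicase Ddx4 fell by 2.60 ± 0.20 (limma adjusted p = 3.39e-08) and the Piwi protein gene Piwil2 fell by 1.57 ± 0.11 (5.77e-09), each with all 10 KO mice below the WT mice of their strain. Rhox5 (-0.51 ± 0.08, limma adjusted p = 0.000106) and Mael (-0.44 ± 0.11, 0.00538) fell by less. Most of these genes were read at low signal. Only 2 of the 16 lay above the median level of the array, and 0 passed among those. Ddx4 averaged 3.66, 3.62 and 3.93 in B6, BALB and NOD KO mice. The brightest Asz1 probe set differed by 0.00, while its other probe set fell by 2.05 and passed. The other Dazl probe set (-0.18) did not pass. Of 16 imprinted genes 15 were measured, of which 1 rose and 6 fell, with a median of -0.16. The counts were the same without the 3 B6 arrays. The largest falls were those of Ndn (-1.39 ± 0.17, limma adjusted p = 6.11e-06), the cell cycle inhibitor Cdkn1c (-1.38 ± 0.14, 9.84e-07), the growth factor Igf2 (-1.20 ± 0.11, 2.56e-07) and the non-coding RNA Meg3 (-0.62 ± 0.13, 0.00285), and Snrpn rose (0.32 ± 0.06, 0.00123). The second Igf2 probe set (0.17) did not pass, nor did 3 of the 7 other Ndn and 8 of the 10 other Meg3 probe sets.

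The surroundings of Dnmt3l on the chromosome were read over the protein-coding genes with a probe set on either side of Aire, 12 on each side with Dnmt3l among them, in RefSeq order. Of the 23 besides Dnmt3l, 3 rose and 2 fell, close to the 10.5% and 10.1% of all probe sets, with a median difference of 0.04. The rises were those of the genes next to the pair, Pfkl, a phosphofructokinase subunit, on the far side of Aire (0.66 ± 0.16, limma adjusted p = 0.00708) and Icosl, a ligand of the costimulator Icos, on the far side of Dnmt3l (0.60 ± 0.16, 0.0134), and of the more distant Syde1 (0.18 ± 0.06, 0.0448). Pdxk (-0.59 ± 0.15, limma adjusted p = 0.00782) and Ilvbl (-0.32 ± 0.10, 0.0366), further along on the Dnmt3l side, fell.

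**Figure D5:**
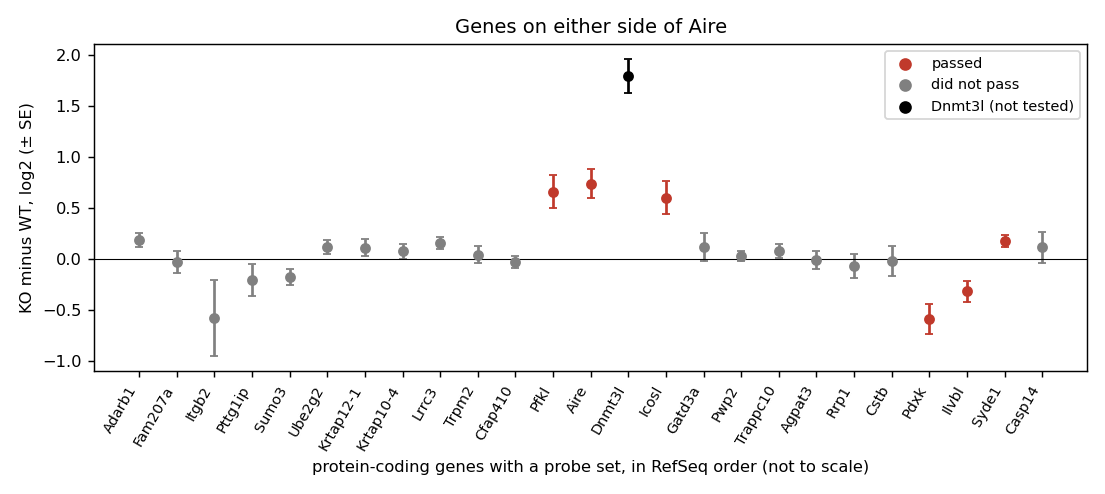
KO minus WT difference in log2 intensity (average over strains ± SE) for the genes on either side of Aire in RefSeq order, not to scale. Red points passed limma at an adjusted p of 0.05, grey points did not, and Dnmt3l in black was not tested. Pfkl, Aire, Dnmt3l and Icosl stand side by side at 0.66, 0.74, 1.79 and 0.60, and the other genes lie between -0.59 and 0.19.

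By strain, Pfkl averaged 9.44, 8.56 and 8.88 in B6, BALB and NOD KO mice against 8.29, 7.95 and 8.66 in WT mice, and both of its other probe sets rose as well (0.55 and 0.41). Icosl averaged 8.35, 8.14 and 8.91 in KO mice against 7.54, 7.62 and 8.45 in WT mice, and its other probe set (0.06) did not pass. Neither did the other probe sets of Pdxk (0.13 and -0.05) and Ilvbl (0.18). Casp14 did not pass on its brightest probe set (0.11), while its other (-0.36) fell and passed. Pfkl and Pdxk passed in all 30 alternatives. Icosl was lost without the 3 B6 arrays (limma adjusted p = 0.0574), Syde1 in 16 of 29 alternatives and Ilvbl in 11 of 30.

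Across the 20 arrays the signals most like that of Dnmt3l, among 18192 other genes each read by its brightest probe set, were those of Rad50 (Pearson r = 0.976), Mrpl13 (0.968), Syn2 (0.958), Map1b (0.956) and Tulp2 (0.953). Aire ranked 123rd at 0.856. The Tet2 probe sets stood at 0.658 and 0.659 and those of Dnmt3b at -0.678 and -0.730. These values mix the genotype and strain differences with the spread between mice. After subtracting the 6 group means the 5 most alike were Ptger3 (0.908), Gramd4 (0.907), Fgd5 (0.903), Stoml1 (0.903) and Prkca (0.903), with Aire at 0.660. Of the other members Tet1 1455425_at (0.743) and Dnmt1 1422946_a_at (0.692) were the most alike, the other Dnmt1 probe sets stood at -0.226 and -0.265, those of Tet2 at 0.088 and 0.499 and those of Dnmt3b at 0.205 and -0.007. The points share arrays, runs and RNA quality, and no test was made.

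Some markers of other cell types also passed for the averaged difference, where 10.5% of all probe sets rose and 10.1% fell. Of 7 thymocyte markers 0 rose and 2 fell (Cd3g by 0.92 and Dntt by 0.67), and their summed intensity was 880.1 to 1834 in KO against 1144 to 2939 units in WT mice. Of 7 dendritic cell and macrophage markers, Fcer1g rose (0.53) and Adgre1 fell (-1.38), with sums of 3827 to 11311 in KO against 4331 to 15809 in WT mice. Of 4 B cell markers Cr2 (1.44) and Blk (0.25) rose, with 1529 to 2744 units in KO against 870.5 to 1970 in WT mice. Ms4a1 was lower in KO mice on its brightest probe set (-0.88, limma adjusted p = 0.0657) and its other (-1.04), and neither passed. Cd79a (0.07) did not pass either, so these markers had no common direction. Fibroblast collagens Col1a1, Col1a2 and Col3a1 fell (-0.77 to -1.11) while Dcn (1.53) and Pdgfra (0.20) rose, with 1264 to 3164 units in KO against 1137 to 1500 in WT mice. Dcn, the brightest of this list (mean 10.03), weighs most in that sum, whereas the median difference of the list was -0.77. Pdgfra was read at low signal (mean 4.95). The other probe sets of Dntt (-0.10 and -0.36), Col1a1 (-0.08), Col3a1 (-0.14) and Pdgfra (-0.05 and 0.13) did not pass. Of the others of Col1a2, that at -0.77 passed and that at 0.11 did not, and the other of Dcn (0.31) passed.

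Of 4 endothelial markers Cd34 fell (-2.11) and Pecam1 rose (0.21), with 306.1 to 385.7 units in KO against 334.8 to 629.1 in WT mice. Of 3 germ cell markers Ddx4 and Dazl fell, with 66.4 to 100.0 units in KO against 102.4 to 262.8 in WT mice. Among cortical epithelial markers Tbata (0.61) and Ly75 (0.52) rose and Ctsl (-0.78) fell, with 6560 to 9010 units in KO against 6958 to 10257 in WT mice. Among the 8 medullary markers Cd80 (0.85) and H2-Ab1 (0.22) rose and Krt5 (-0.69) and Krt14 (-0.44) fell, with 26699 to 35766 units in KO against 26548 to 34690 in WT mice. The other probe sets of Krt14 (-0.23 and -0.38) and Ctsl (0.17) did not pass, while all others of Cd80, H2-Ab1 and Tbata rose and passed. Array signals have no true zero, so no marker can be called absent, and the part of these cells in the differences of Dnmt3l, Tet2 and Dnmt3b was not tested.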

How the data were processed

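Per the labels' protocols, Trizol RNA of the sorted cells went through repeated rounds of linear amplification, which can favour 3′ ends. The table the authors deposited gives a linear intensity for each probe set on each array, made with RMA per the submitters' processing notes. No source used here gives the version of RMA, its settings or the arrays it ran on together, and no detection calls were used, so the precision is limited by the number of mice.

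Groups came from the sample titles. Of 45101 probe sets 64 controls were left out, and log2 was taken of the rest. Exactly 1 symbol was annotated for 34945, several for 932 (none with a member) and none for 9160. A model of 6 group means over the 20 arrays was fitted by lmFit and moderated by eBayes (limma 3.58.1, R 4.3.3), with 14 residual degrees of freedom. P-values were adjusted by Benjamini-Hochberg over 45037 probe sets, and an adjusted p under 0.05 passed. The code was tested on simulated data. Groups were called apart where no KO mouse overlapped a WT mouse of its strain. List genes were read by the probe set with the highest mean. Promoter windows came from RefSeq (GRCm38.p6), which held windows for all 8 members and was otherwise used for names and gene order.

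The members and lists were chosen with earlier results of these data known. Genes named are the members, Aire, flanking genes that passed, up to 4 passing genes per list by size (more to complete a count of 5 or fewer), and the 5 most like Dnmt3l by each measure. Epcam and Fezf2 were added as checks of the sorted cell type, and Ms4a1 and Cd79a to complete the B cell markers. Asz1, Top2a, Casp14 and Ehmt2 were added because another probe set passed with a result unlike that of the brightest.

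Same-numbered mice were compared by the correlation of their deviations from the group means. It was 0.46 to 0.66 for the 4 BALB pairs, 0.31 to 0.67 for the 3 NOD pairs, and 0.78, 0.72 and -0.13 in B6. Same-numbered mice were thus alike in BALB and NOD and less consistently so in B6. The main model ignored the numbers. The replicate block paired same-numbered mice in all 3 strains, B6 included, and was run as an alternative. Alternatives covered scaling, a level filter, an added constant of 32, variance models, array weights, blocks for replicate number and code run (1 mouse without a code left out), a Gapdh covariate, leaving out 3 B6 arrays, and leaving out each mouse.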

Additional observations from a re-analysis of the deposited data

Results flagged for a closer look

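Of 40 BALB groups of 4 mice, over the 20 probe sets, 5 had 1 mouse far from the other 3 by Dixon's criterion, where chance alone marks about 1 in 20. BALB KO mouse 2 read 8.817 on Dnmt3a 1423066_at, with the other KO mice between 8.387 and 8.434. The same mouse read 6.092 on Tet1 1419896_at, with the others between 6.619 and 6.688, and 6.029 on Tet3 1439324_at, with the others between 6.443 and 6.463. BALB WT mouse 2 read 6.128 on Tet1 1419896_at, with the other WT mice between 6.611 and 6.672. BALB WT mouse 1 read 7.534 on Dnmt3b 1418351_a_at, with the others between 6.998 and 7.012. Without that mouse Dnmt3b 1418351_a_at still fell in the average over strains.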

How the results depend on the processing

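The calls of Tet2 and Dnmt3b for the averaged difference were kept on all 4 probe sets in each of the 30 alternatives, with limma adjusted p up to 2.03e-06 and 0.000109 for Tet2 and 0.0126 and 0.00615 for Dnmt3b, and no result changed sign past the threshold. The Dnmt3l difference of 1.79 was 1.71 to 1.92 on leaving out single mice and 1.65 to 1.89 otherwise. With array weights 7 member probe sets passed instead of 4, the added ones being Uhrf1 1415810_at, Dnmt3a 1423063_at (limma adjusted p = 0.0361) and Dnmt3a 1423066_at (0.00264), and leaving out single mice gave 4 to 6. The strain difference of the KO effect gave 1 member probe set instead of 0 with array weights (0 to 0 without single mice). The WT strain test gave 3 instead of 1 with array weights and with the Gapdh covariate, and 0 to 3 without single mice. It could not be fitted with the replicate block. Over all probe sets 9277 passed, against 5455 of those above the median level, 16715 with array weights, 16664 with the replicate block, 6557 without the 3 B6 arrays and 7603 to 9748 without single mice. Methylation partners gave 13, 8 without the 3 B6 arrays and 9 to 15 without single mice. Cell cycle genes gave 10, 18 with the replicate block, 4 without the 3 B6 arrays and 7 to 13 without single mice. Flanking genes gave 5, 9 with array weights, 9 with the replicate block, 3 without the 3 B6 arrays, 8 with all their probe sets and 3 to 7 without single mice. The causes were not tested. The replicate block changed the member calls named with it in the text, all gains, and no other call of a member. Signals near background, as for Tet3 and Tet1 1419897_at, limit what can be seen in those genes.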
